A study of Mus musculus with 3 samples.

Results

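The cells described here are 304 macrophages from metastasis-bearing mouse brains, taken from 5336 barcodes that passed the quality limits and 12908 barcodes in all. They were chosen by the transcripts of 15 genes. A barcode had to hold at least 1 UMI (unique molecular identifier, a counted transcript) of Ms4a7 and at least 3 each of Apoe and Fcer1g. It could hold at most 2 of the inflammatory monocyte genes Chil3, Thbs1, Hp, Slpi, Clec4e and Plac8, and at most 1 of the microglia genes P2ry12, Tmem119, Fcrls, Gpr34, Sall1 and Siglech. Quality meant at least 500 genes, 2000 to 40000 gene UMIs, at most 15% mitochondrial UMIs and 1 mouse hashtag with at least 70% of the mouse hashtag counts.

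The brains came from female C57Bl/6 mice aged 2 to 3 months in which E0771, a mouse mammary carcinoma line, had been injected into the carotid artery to seed brain metastases. Some mice received antibodies against VISTA and PD-L1 (named Dual TX) every other day from day 3 after the injection, and the others did not. Immune cells were enriched from perfused, digested brains on a Percoll gradient, stained with 35 oligonucleotide-tagged antibodies and 1 of 8 hashtags, and pooled into 1 capture, so that transcripts, antibody tags and hashtags were counted for the same cells (CITE-seq). The sources used here do not tie a hashtag to a treatment or say whether each was a separate animal. Treated and untreated brains were therefore not compared, and a p-value here reflects the variation among hashtag samples, which may not be animals.

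Tumour-bearing brain holds resident microglia, macrophages of its borders, and cells that enter from blood as Ly-6C-high monocytes and can mature there into macrophages. Maturing monocytes lose Ly-6C and gain MHC class II, F4/80 and complement C1q. Ms4a7 encodes a membrane protein of the MS4A family found on infiltrating and border macrophages and little on microglia, Apoe a lipid carrier, and Fcer1g the signalling chain shared by Fc receptors. Macrophages display peptides to CD4 T cells on MHC class II, whose genes are switched on together by the coactivator CIITA.

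The surface readout rests on antibodies that each carry a DNA barcode, whose copies were counted per cell. None of these tags entered the choice of cells, but a tag can still follow the rule genes. Ly6C averaged 306 tags per cell in members with 0 monocyte genes and 540 in members with 2. It averaged 923 in barcodes left out for 4 or more. Tests of tags between gates therefore describe how the gates differ and do not support the choice. The 7 tags on which the surface results turn had these barcodes of 15 bases, all printed in capitals because the whole barcode is the identifier.

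I-A-I-E (MHC class II): GGTCACCAGTATGAT
CD11c (integrin alpha X): GTTATGGACGCTTGC
F4-80 (Adgre1): TTAACTTCAGCCCGT
Ly6C: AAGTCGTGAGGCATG
CD49d (integrin alpha 4): CGCTTGGACGCTTAA
PD-L1: TCGATTCCACCAACT
CX3CR1 (fractalkine receptor): CACTCTCAGTCCTAT

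MHC class II transcripts and the class II tag were higher in these macrophages than in monocytes, so the start-proximal promoters of 3 class II genes that passed that test are shown. They are the 130 bases upstream of each RefSeq gene start in GRCm38.p6, the patch release of mm10, written 5′ to 3′ on the gene's strand. Capitals mark CTGATTGG, the core of the Y box of class II promoters. H2-Aa lies on the minus strand, with this window at chr17:34287824-34287953. H2-Eb1 and H2-DMb1 lie on the plus strand, with windows at chr17:34305737-34305866 and chr17:34153061-34153190.

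H2-Aa: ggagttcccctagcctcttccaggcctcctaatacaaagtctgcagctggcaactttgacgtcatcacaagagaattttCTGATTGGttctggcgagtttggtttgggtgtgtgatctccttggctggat
H2-Eb1: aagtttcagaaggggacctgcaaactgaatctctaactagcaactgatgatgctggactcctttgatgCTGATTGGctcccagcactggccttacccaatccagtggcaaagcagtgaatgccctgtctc
H2-DMb1: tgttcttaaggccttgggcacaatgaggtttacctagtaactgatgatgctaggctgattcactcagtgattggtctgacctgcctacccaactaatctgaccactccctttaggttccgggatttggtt

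The letters CTGATTGG stood 51 to 44 bases before the gene start of H2-Aa and 62 to 55 bases before that of H2-Eb1, and had no match in the H2-DMb1 window. Searched on both strands (CTGATTGG or CCAATCAG, which contain CCAAT or its complement), they occurred in 2.96% of 32851 RefSeq promoter windows of this length. The shorter CCAAT or ATTGG had 1, 2 and 1 matches in the H2-Aa, H2-Eb1 and H2-DMb1 windows, and occurred in 22.4% of all these windows. A match describes the letters only.

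The macrophages were found in all 8 hashtag samples, with 1, 33, 27, 10, 79, 29, 30 and 95 cells in samples 1 to 8. As a share of the quality barcodes they made up 2.63% in sample 1 (1 of 38 barcodes) and between 3.81% (29 of 761, sample 6) and 7.87% (10 of 127, sample 4) elsewhere. The exact binomial 95% interval ran from 2.57 to 5.43% in sample 6 and from 6.13 to 9.12% in sample 8, where the share was 7.52%. Samples 6 and 7 therefore sat low and samples 2 and 8 high, while the small samples 1 and 4 had intervals too wide to place. Set against only the 3 myeloid gates described below, macrophages were 31.8% of sample 8 and 14.6% of sample 6. Intervals cover counting error only.

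**Figure D1:**
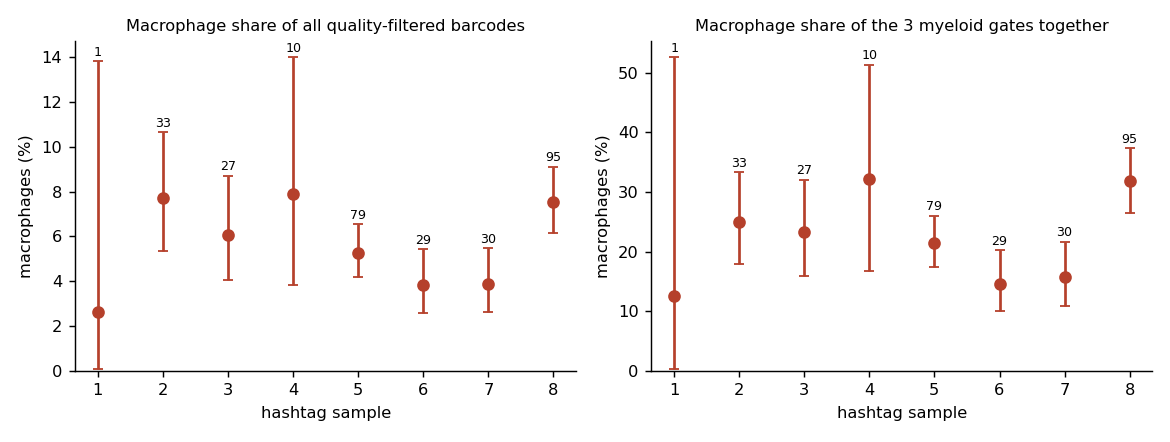
Macrophages as a percentage of the quality barcodes of each hashtag sample, with exact binomial 95% intervals as bars and the number of macrophages above each point. Sample 8 (7.52%) lies above samples 6 (3.81%) and 7 (3.86%), and the intervals of samples 1 and 4 span most of the range.

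The macrophages were deeply sampled. Their median was 11637 UMIs and 2996 genes per cell, against 8728 UMIs over all quality barcodes, with 1.10% mitochondrial UMIs and 3775 antibody tags. The top hashtag held a median of 97.9% of hashtag counts. Summed counts per sample were 326548 to 1422302 UMIs in the 6 samples with at least 20 macrophages (samples 2, 3, 5, 6, 7 and 8), the only ones used in the comparisons. Levels are CPM of these sums, a gene's UMIs scaled to a common total of gene UMIs in every sample and gate. The assay counts transcript 3′ ends, so CPM is not scaled by gene length, and an order of genes by CPM is only an order of counted UMIs.

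The limits of the rule cut through a continuum. The 170 members with 2 monocyte genes held 1362 CPM of Ms4a7 and 1407 CPM of Ly6c2, which encodes the monocyte antigen Ly-6C. The 186 barcodes just outside, with 3, held 1007 and 1840 CPM. The 36 members with no monocyte gene held 2567 CPM of Ms4a7, 12610 of Apoe and 363 of Ly6c2. Of the 304 members 170 thus sit at the limit on monocyte genes, and Ms4a7, Apoe and C1qa were lower and Ly6c2 higher towards that limit. On Apoe, 13 members held 3 or 4 UMIs and 28 barcodes outside held 1 or 2. On Fcer1g these numbers were 2 and 11. The 51 barcodes left out for a second microglia gene held 16286 CPM of Apoe, against 8416 CPM in the 109 members with 1.

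The name was checked against its markers. Of the 5 markers given for these cells, 3 are in the rule. The 2 others are Ms4a6d, a second MS4A family member, and Fabp5, a fatty acid binding protein. Ms4a6d ranged from 593 to 1213 CPM in the 6 samples, with a median of 947, and Fabp5 from 520 to 2427, with a median of 757. In inflammatory monocytes their medians were 1083 and 1069 CPM, within or close to the range of the macrophages, and in microglia 164 and 118. By edgeR's test, described with the comparisons, both were higher than in microglia, with log2 differences of 2.47 ± 0.18 (SE) for Ms4a6d and 3.25 ± 0.24 for Fabp5. Against monocytes Ms4a6d was lower in 6 of 6 samples (-0.33 ± 0.09, edgeR adjusted p = 0.0107), which goes against the name, and Fabp5 did not pass (0.03 ± 0.17, adjusted p = 0.929). Neither marker therefore set these cells above monocytes. Macrophage genes outside the rule were present throughout, but as a list did not set these cells above monocytes. Of 12 pan-macrophage genes 4 were higher and 4 lower than in monocytes. Their summed level had a median of 9463 CPM, against 17279.5 in monocytes. Lyz2 alone held 9765 to 13177 CPM in monocytes, so this sum largely follows 1 gene and not the list. Csf1r, the receptor for colony-stimulating factor 1, ranged from 321 to 435 CPM, against 288 to 382 in monocytes and 1785 to 2071 in microglia. Adgre1 (F4/80) ranged from 120 to 410 and the lysosomal glycoprotein gene Cd68 from 749 to 1342.

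Markers of other cells were low but not absent. Summed over 8 T cell genes, the macrophages held 9.19 to 317 CPM. The 6 carcinoma markers summed to 12.7 to 33.9 CPM, with Krt19 and Krt7 at 0 in every sample, and Epcam reached 2.11 CPM at most. The neutrophil list summed to 36.2 to 228 CPM. The T cell gate (920 cells) needed at least 2 of Cd3d, Cd3e and Cd3g, no Ms4a7, and few monocyte or microglia rule genes. It should lack macrophage genes and gave a guide to free RNA: C1qa was 13 to 19.1 CPM there. Because barcodes with Ms4a7 were left out, this guide may read low. Of the 304 macrophages, 36 (11.8%) held 2 or more of 10 markers of other cells, against 119 of 616 monocytes (19.3%). Comparisons were repeated without them.

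Dendritic cell genes marked a subset. In 34 macrophages, 2 or more genes of either the mature or the conventional dendritic list were detected. These cells had a median of 20910 UMIs, against 11207 in the other 270. Ccr7, the receptor that guides dendritic cells to lymph nodes, was 481 CPM in them and 8.46 CPM in the rest. H2-Ab1 stood at 6659 and 4855 CPM, Lyz2 (lysozyme) at 2408 and 5238, and Csf1r at 204 and 402. C1qa, which dendritic cells express little, was nonetheless 2729 and 3547 CPM. Ccr7 chose these cells in part, so these values are descriptions. In the monocyte gate 34 of 616 cells (5.52%) held 2 or more mature and 45 (7.31%) 2 or more conventional dendritic genes. Among the 304 macrophages these were 18 (5.92%) and 23 (7.57%), so such cells were about as frequent in both gates. Detection was not thinned to a common depth.

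The genes with most UMIs were Fth1 (ferritin heavy chain, mean 20031 CPM) and Tmsb4x (thymosin beta 4), followed among immune genes by Cd74 (invariant chain). Cd74, which guides class II molecules to endosomes, stood at 7939, 4682, 9240, 6264, 14238 and 14948 CPM in samples 2, 3, 5, 6, 7 and 8. Samples 7 and 8 were highest and sample 3 lowest. H2-Ab1, a class II beta chain, followed the same order at the top, with 3160, 2254, 4056, 3514, 6570 and 7429 CPM. H2-Aa, its alpha partner, ranged from 1991 in sample 3 to 6672 in sample 7, and H2-Eb1 from 1893 to 5280. Class II transcripts were thus highest in the same samples, and samples 7 and 8 lay clear of the other four.

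Complement C1q, whose chains start the classical pathway, varied less. C1qa ranged from 2258 in sample 5 to 4110 CPM in sample 3, C1qb from 2647 to 4407 and C1qc from 1294 to 2301. Sample 5 was lowest for all of them. Apoe, a rule gene, ran from 4894 CPM in sample 8 to 12564 in sample 6. Within samples the cells spread widely: in sample 8 the 10th percentile, median and 90th percentile of H2-Ab1 per cell were 809, 7400 and 15251 CPM, and in sample 5 they were 0, 2483 and 10708. C1qa was not detected in 22.8% of cells of sample 5 and 23.2% of sample 8.

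The 10 genes that varied most between samples, by coefficient of variation among genes with a mean of at least 100 CPM, fell into a set spread over many cells and a set that rested on single barcodes. Interferon-induced genes were of the first kind. Cxcl9, a T cell chemokine, was 220, 380, 308, 266, 1296 and 2303 CPM in samples 2, 3, 5, 6, 7 and 8. In sample 8 it was detected in 70 of 95 cells and was 2042 CPM without its highest barcode. In sample 7 it was detected in 16 of 30 cells and was 1105 CPM without it. In samples 2, 3 and 6 a single barcode held over 50% of its UMIs. Gbp2, a guanylate-binding protein gene, was also highest in samples 7 (430 CPM) and 8 (643 CPM), where 19 of 30 and 86 of 95 cells held it. It lay between 76.1 and 196 CPM in the others. Samples 7 and 8 were the same samples in which class II transcripts were highest. Ifitm1 was highest in samples 7 (597 CPM) and 5 (357 CPM), at 424 and 251 CPM without the highest barcode.

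The second kind included lysosomal and secreted products. Ctsk, the protease cathepsin K, was 790 CPM in sample 5 and 6.79 to 113 CPM elsewhere. In sample 5, 789 of its 817 UMIs came from 1 barcode, and the other 78 cells held 27.8 CPM. Acp5 (tartrate-resistant acid phosphatase) was 874 CPM in sample 5 and 146 to 279 CPM elsewhere, and 644 of its 904 UMIs came from that same barcode. It also held 174 UMIs of Mmp9 (1 in the other cells of the sample) and 28 of Atp6v0d2 (2 in the others), but 4 of Ms4a7 and 2 of C1qa. Ctsk, Acp5, Mmp9 and Atp6v0d2 are all genes known from bone-resorbing cells.

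Ccl8, a monocyte chemokine, was 1305 CPM in sample 2, 533 in sample 6 and 633 in sample 8. A single barcode held 419 of 463 UMIs in sample 2 and 209 of 210 in sample 6, whereas in sample 8 the 900 UMIs lay in 22 cells. The barcode of sample 2 also held 50 of the 56 UMIs of Folr2, a folate receptor of tissue macrophages, and 85 of the 122 of Pf4, a platelet-type chemokine that border macrophages express. Hmox1 (heme oxygenase) was 1360 CPM in sample 6 and 448 CPM without 1 barcode. Spp1 (osteopontin) was 1518 CPM in sample 8 and 568 CPM without 1 barcode. Gdf15 ranged from 20.4 to 265 CPM and Ccr7 from 22.6 to 312 CPM, and for Ccr7 in sample 7 a single barcode held 81 of 138 UMIs. Most of the highest levels of this kind thus describe single cells and not the sample's macrophages.

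**Figure D2:**
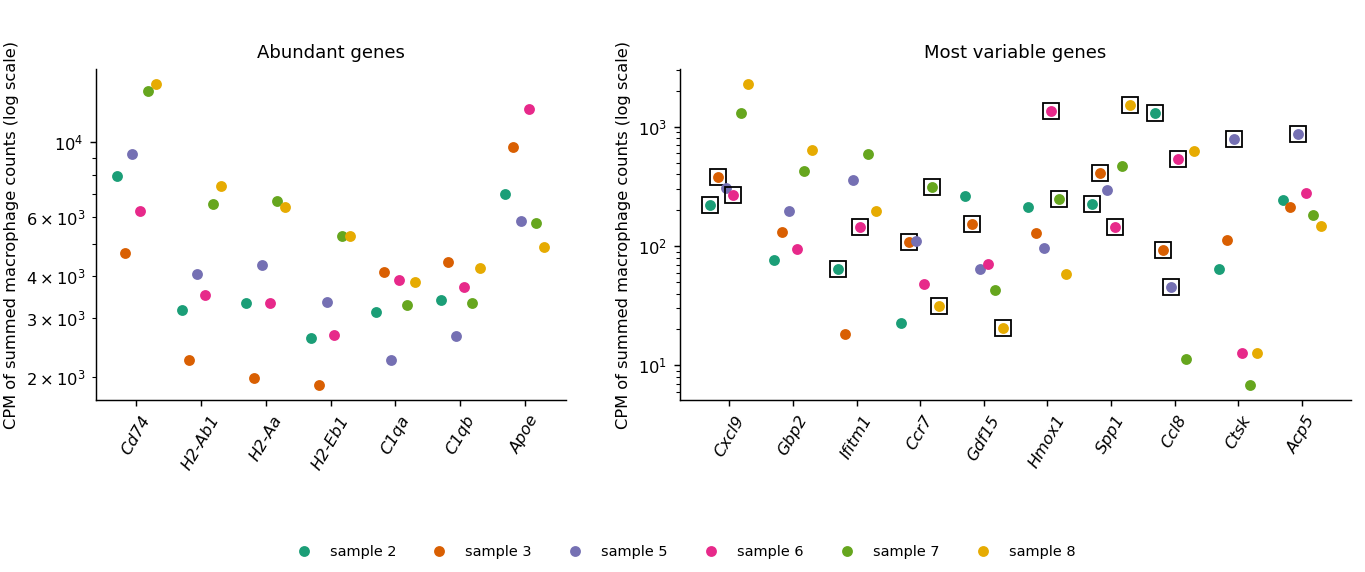
Levels in the macrophages of each hashtag sample in CPM on log axes, for genes with many UMIs (left) and the 10 most variable genes (right). On the right, a black square marks a gene and sample with at least 20 UMIs of which 1 barcode held over 50%, as for Ctsk in sample 5 and Ccl8 in samples 2 and 6. Cd74 and the class II genes are highest in samples 7 and 8.

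The macrophages were compared with 2 other gates of the same samples, which share no barcode with them. Inflammatory monocytes (616 cells, median 10970 UMIs) held Chil3 and Thbs1, at least 3 of the 6 monocyte genes and at most 1 microglia gene. Microglia (424 cells, median 8186 UMIs) held at least 4 of the 6 microglia genes and at most 2 monocyte genes. Summed counts were tested with edgeR's quasi-likelihood test with the hashtag sample as a block. A gene or tag passed at a Benjamini-Hochberg adjusted p under 0.05. Differences are log2 fold changes with an approximate standard error, the absolute difference divided by the square root of the test's F statistic.

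On the surface the macrophages carried more CD11c and MHC class II and less Ly-6C and CD49d than the inflammatory monocytes of the same 6 samples. In shares of all tags, 8 of 32 tested tags (25.0%) were higher on macrophages and 3 (9.38%) lower. The remaining 3 of the 35 antibodies (CD335, CXCR4 and KLRG1) were at or near 0 counts. Without sample 2, or without sample 6, 5 were higher. Of the 11 tags that passed in share, 4 passed the same way under every alternative. Tags per cell were read as well, since a share falls when another tag rises.

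Ly6C, the antigen of newly arrived monocytes, was 354, 347, 424, 322, 461 and 621 tags per macrophage in samples 2, 3, 5, 6, 7 and 8, and 708 to 1313 per monocyte. All macrophage values lay below all monocyte values. T cells held 256 to 301 tags and microglia 233 to 280, so by their median of 389 the macrophages stood closer to these than to monocytes, whose median was 838. Its share differed by -0.98 ± 0.16 (edgeR adjusted p = 0.00208) and its level per cell by -1.08 ± 0.17 (adjusted p = 0.000177). CD49d, the integrin through which leukocytes attach to inflamed brain endothelium, was 22.4 to 36.3 tags per macrophage and 40.7 to 58.5 per monocyte, also without overlap (share -0.62 ± 0.07, adjusted p = 0.000543).

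CD11c, an integrin of dendritic cells and activated macrophages, was 73.8, 59.4, 120, 128, 162 and 148 tags per macrophage. The monocytes held 41.4 to 59.2. Macrophages were higher in 6 of 6 samples, by 1.22 ± 0.16 in share (adjusted p = 0.000963) and 1.13 ± 0.22 per cell (adjusted p = 0.00111). I-A-I-E, the class II protein, was 801, 1124, 1646, 1025, 2159 and 1136 tags per macrophage and 330 to 1188 per monocyte. The ranges overlapped, but within each sample the macrophages were higher, by 0.95 ± 0.17 in share (adjusted p = 0.00283) and 0.85 ± 0.20 per cell (adjusted p = 0.00511). F4-80, the macrophage antigen, was 16.5 to 47.6 per macrophage against 11.4 to 26.9, higher in 6 of 6 samples (share 0.68 ± 0.10, adjusted p = 0.00157).

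PD-L1, the ligand of the T cell inhibitory receptor PD-1 and a target of the treatment, was 40.4, 47.4, 50.5, 43.1, 6.33 and 29.4 tags per macrophage. Sample 7 stood far below the rest, and its monocytes did too, at 7.12. Macrophages were higher in 5 of 6 samples. The difference passed in share (0.54 ± 0.14, adjusted p = 0.0217) and not per cell (0.43 ± 0.20, adjusted p = 0.138). CX3CR1 gave no difference that passed from monocytes, at 18.1 to 47.3 tags per macrophage and 20.2 to 30.8 per monocyte (share 0.13 ± 0.12, adjusted p = 0.396). CD172a-SIRPa, CD25, CD117-c-kit and CD169-Siglec-1 were the other tags higher in share, by 0.43 to 0.72, of which CD25 also passed per cell. CD25 and CD117-c-kit had few counts, at 4.18 and 6.00 tags per macrophage and 2.70 and 4.16 per monocyte. How far tags this few are unspecific was not tested. CD11b was the remaining tag lower in share (-0.21 ± 0.06).

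Against microglia the macrophages held more tags per cell for most antibodies. Per cell, 25 of 32 tags passed as higher and 1 as lower. Those higher included TMEM119 (0.74 ± 0.29), whose gene is a microglia gene of the rule, and the T cell antigen CD3 (1.51 ± 0.27). The per-cell rise therefore was not limited to antigens of macrophages. Whether it reflects surface protein or more tags of every kind per macrophage was not tested. Over all 304 macrophages and all 424 microglia of the 8 samples, the medians were 3775 and 703.5 tags per cell. In samples 5, 6, 7 and 8, which carry the test, CD11c averaged 140 tags per macrophage and 12.2 per microglial cell (3.63 ± 0.28 per cell), I-A-I-E 1491 and 180 (3.29 ± 0.43) and PD-L1 32.3 and 4.19 (2.80 ± 0.28). CX3CR1 alone went the other way among 32 tags per cell, at 28.9 ± 12.4 against 43.4 ± 9.15 (SD, n = 4), a difference of -0.65 ± 0.21 (edgeR adjusted p = 0.0153). In shares, 6 tags (18.8%) were higher (2 without sample 5 and 3 without sample 6) and 17 (53.1%) lower. Of the 17, 16 turned higher per cell, so the shares of these tags give no direction here. CD11c, I-A-I-E, PD-L1, CD44, CD49d and CD45 were higher on both scales. Of the 23 tags that passed in share, 2 passed the same way under every alternative.

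**Figure D3:**
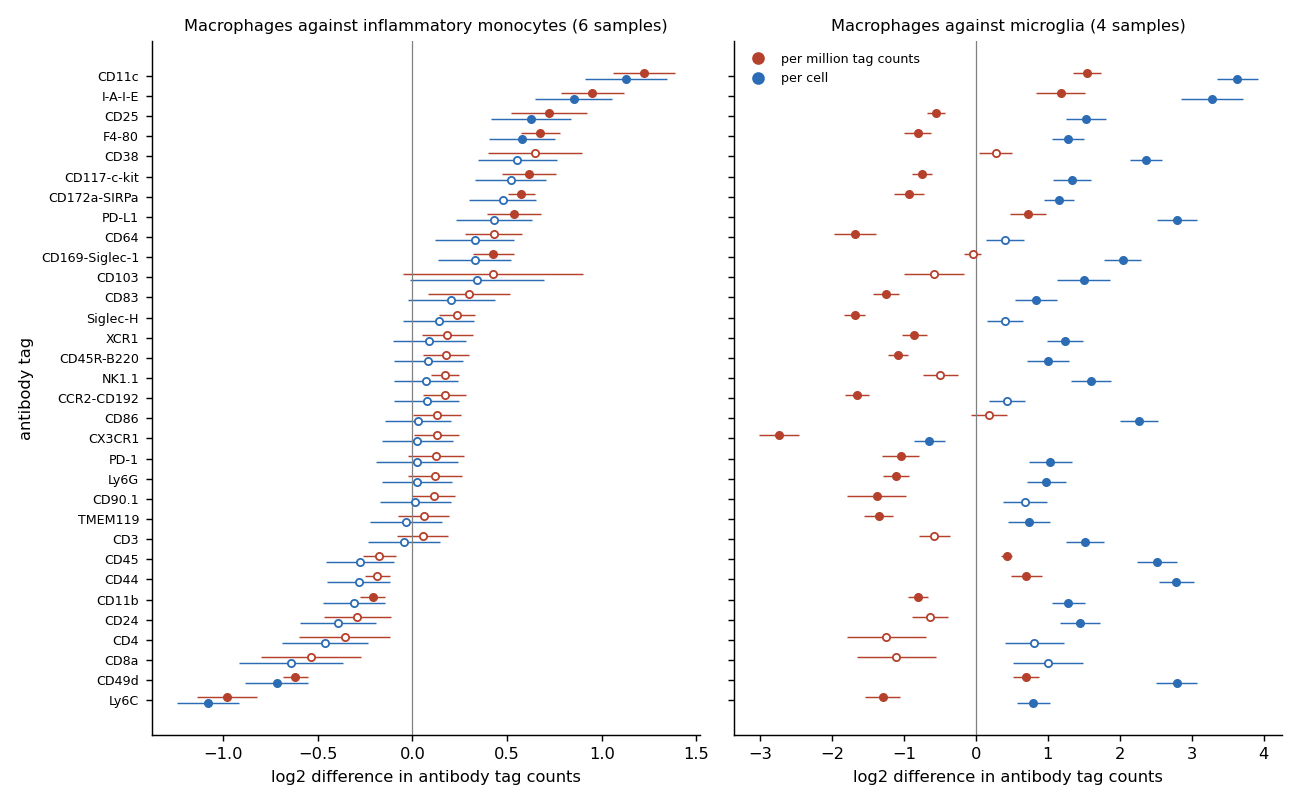
Log2 difference of each antibody tag between macrophages and inflammatory monocytes and between macrophages and microglia, as a share of all tags (red) and per cell (blue). Bars are approximate standard errors, derived from the test statistic, and filled points passed at an adjusted p under 0.05. CD11c and I-A-I-E are higher and Ly6C and CD49d lower than on monocytes on both scales. Against microglia most points move from below 0 to above 0 when tags are counted per cell.

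Tags were also set against their transcripts cell by cell. Across the 79 cells of sample 5 and the 95 of sample 8, the rank correlation of the I-A-I-E tag with its summed transcripts was 0.74 and 0.60, that of F4-80 with Adgre1 0.56 and 0.44, and that of CX3CR1 with Cx3cr1 0.08 and 0.12. For PD-L1 and Cd274 it was 0.31 and 0.19. Tags were taken as shares of the cell's tags and transcripts as shares of its UMIs, and the share of cells with a UMI differed, at 98.7 and 100% for class II and 41.8 and 52.6% for Cx3cr1. For sparse genes a low value is no finding, so these values are not compared between tags.

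Transcripts were compared between the same gates. They were measured in the cells that the rule selected, and genes that vary with the rule genes follow the choice of cells. The counts of genes that passed therefore describe how the gates differ and do not support the choice. The 15 rule genes, and Retnlg and Cxcr2 of the monocyte gate, were left out of the counts of lists. Of 6934 genes tested against monocytes, 762 (11.0%) were higher and 967 (13.9%) lower in macrophages, with a median log2 difference of 0.03 over all genes. DESeq2 called 361 higher, and members with at most 1 monocyte gene gave 302 higher and 623 lower in samples 5 and 8. Fewer cells of a type and less RNA per cell cannot be told apart in such sums.

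The macrophages held more complement C1q than the monocytes. C1qa was 2258 to 4110 CPM, with a median of 3562, against 488 to 889 CPM, without overlap (2.17 ± 0.16). C1qb and C1qc differed by 1.89 ± 0.16 and 2.00 ± 0.16. Cd72, an inhibitory C-type lectin, differed by 2.08 ± 0.10, from 107 ± 39.5 to 470 ± 154 CPM (SD, n = 6). The other genes with the largest rise included Pf4 (2.05 ± 0.25), Gdf3 (1.94 ± 0.27), Pltp, a phospholipid transfer protein (1.94 ± 0.20), Hpgds, a prostaglandin D synthase (1.93 ± 0.21), and Mmp12, macrophage elastase (1.86 ± 0.41). Folr2 rose by 2.11 ± 0.29, and by 1.41 with each gene's highest barcode left out. Of 11 complement genes tested, 4 were higher and 5 lower, with C3ar1, the receptor for C3a, among the higher (0.95 ± 0.09).

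Class II genes were higher as a group. Of 9 tested, 6 were higher and 0 lower, with a median of 0.75. H2-Eb1 was 699 to 2018 CPM in monocytes and 1893 to 5280 in macrophages. The groups overlapped between samples, yet macrophages were higher in 6 of 6 (1.38 ± 0.10). H2-Ab1 differed by 1.29 ± 0.11, H2-Aa by 1.26 ± 0.10, Cd74 by 0.97 ± 0.08, H2-DMb1 (a chain of the peptide-loading H2-DM) by 0.75 ± 0.09 and Ciita, the coactivator of these genes, by 0.60 ± 0.18. H2-DMa, H2-DMb2 and H2-Oa did not pass (0.24, 0.10 and 0.34). H2-Aa, H2-Eb1 and H2-DMb1, whose promoter windows are printed above, were thus all higher. MHC class I was nearly level, with 3 of 13 genes higher (H2-Q7, H2-K1 and B2m), 0 lower and a median of 0.02.

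Lysosomal genes were mostly higher, 14 of 20, with 1 lower and a median of 0.49. Lgmn (legumain, 0.90 ± 0.07), Grn (progranulin, 0.67 ± 0.07) and Ctsb (cathepsin B, 0.57 ± 0.08) were higher, and Lamp2 lower (-0.62 ± 0.08). Among 19 lipid-handling genes 8 were higher and 2 lower, with a median of 0.26. Trem2, a lipid-sensing receptor, was 295 to 530 CPM against 87.3 to 243, without overlap (1.35 ± 0.15). Itgax, the CD11c transcript, rose by 1.30 ± 0.12, in the direction of its tag. Lpl (lipoprotein lipase) rose by 1.19 ± 0.15, though among members with at most 1 monocyte gene, in samples 5 and 8 alone, it was -0.32. Spp1 and Gpnmb, often used for lipid-laden macrophages, did not pass (-0.75 ± 0.33, adjusted p = 0.103, and 0.26 ± 0.20, adjusted p = 0.356). Of 7 border macrophage genes 4 were higher and 1, F13a1, lower. Mrc1, the mannose receptor, was 211, 107, 178, 66.0, 52.0 and 24.6 CPM in samples 2, 3, 5, 6, 7 and 8 and above the monocytes in 6 of 6 (1.30 ± 0.18). Cd163, a haemoglobin scavenger receptor, was at 0 in all.

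Genes of the monocyte program were lower. All 12 monocyte maturation genes tested passed as lower, with a median of -1.75. Vcan, versican, was 2.54 to 19.7 CPM in macrophages and 263 to 554 in monocytes (-5.45 ± 0.20). F13a1 (coagulation factor XIII, -4.08 ± 0.18), Fn1 (fibronectin, -3.43 ± 0.27) and Ly6c2 (-1.04 ± 0.15) followed. Ly6c2 overlapped between the gates (327 to 1844 against 1099 to 2025 CPM), whereas the Ly6C tag did not. The monocyte gate was itself set by genes of this program. The largest difference was Cxcl3, a neutrophil chemokine, with 2 UMIs in all macrophages and 866 in all monocytes. Its ratio of CPM was 201 (exact 95% interval 55.5 to 1663). Such intervals of ratios, here and below, cover counting error of pooled UMIs only, not the variation among cells or hashtag samples. Inhba (-5.27 ± 0.45), Dmkn (-4.47 ± 0.21), Cd177 (-4.19 ± 0.29), Nrg1 (-4.01 ± 0.39) and Plcb1 (-3.49 ± 0.34) were the other genes most reduced.

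Inflammatory mediators were lower too. Of 12 cytokine genes 10 were lower and 1, Il18bp, which neutralises interleukin 18, was higher, with a median of -0.95. Il1b was 1565 to 3308 CPM against 5168 to 6521 (-1.38 ± 0.09), Il1a differed by -2.56 ± 0.16 and Il6 by -3.97 ± 0.25. Of 14 chemokine genes 7 were lower and 3 higher, with a median of -0.47. Cxcl16, the ligand of the T cell receptor CXCR6, was 826, 962, 717, 921, 871 and 1026 CPM. It was the steadiest of those that rose, above every monocyte value (305 to 375 CPM, 1.32 ± 0.10). Ccl5 was higher in 5 of 6 samples (0.96 ± 0.23), as was Ccl8 (2.10 ± 0.46), with the single-barcode samples described above.

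Interferon-induced genes were lower in macrophages than in monocytes. Of 22 type I interferon genes 17 were lower and 2 higher (Bst2 and Ifi44), with a median of -0.64. Rsad2, an antiviral enzyme, was 257 to 717 CPM against 762 to 1126 (-1.42 ± 0.13), and Isg15 differed by -0.72 ± 0.12. Of 15 interferon-gamma genes 8 were lower and 0 higher, with a median of -0.50. Cxcl10, which attracts CXCR3-bearing T cells, was 1068, 1283, 409, 239, 1894 and 1536 CPM in macrophages and 2271 to 3979 in monocytes (-1.69 ± 0.30). The groups did not overlap. Cxcl9, from the same family, was 599 ± 530 CPM in monocytes and 796 ± 842 in macrophages (SD, n = 6) and did not pass (0.26 ± 0.20, adjusted p = 0.378).

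Checkpoint and suppression genes had no common direction, with 4 of 17 higher, 6 lower and a median of -0.13. Lair1, an inhibitory collagen receptor (1.06 ± 0.11), and Sirpa (0.53 ± 0.10) were higher. Ptgs2, the inducible cyclooxygenase (-1.85 ± 0.13), and Arg1, arginase (-1.33 ± 0.38), were lower. Arg1 itself was low in all macrophages, at 3.06 to 76.9 CPM. The transcripts of both treatment targets did not pass. Cd274 (PD-L1) was 113, 178, 113, 73.6, 206 and 158 CPM, against 109 to 205 in monocytes (-0.17 ± 0.14, adjusted p = 0.393). Vsir (VISTA) was 220, 104, 166, 137, 179 and 128 CPM, against 122 to 147 (0.13 ± 0.11, adjusted p = 0.404). Of 7 costimulation genes 3 were lower (Cd80, Cd86 and Icam1), of 15 glycolysis and hypoxia genes 8 were lower, and of 16 immediate early genes 7 were lower, with 0 higher in each. Of 8 cell cycle genes 2 were higher (Mcm6 and Mcm3) and 0 lower. Of 12 pan-macrophage genes 4 were higher (Nr1h3, Mertk, Adgre1 and Cd68) and 4 lower (Lyz2, Cd14, Itgam and Fcgr1). Among the MS4A relatives of Ms4a7, 1 of 8 was higher (Ms4a14) and 4 lower.

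**Figure D4:**
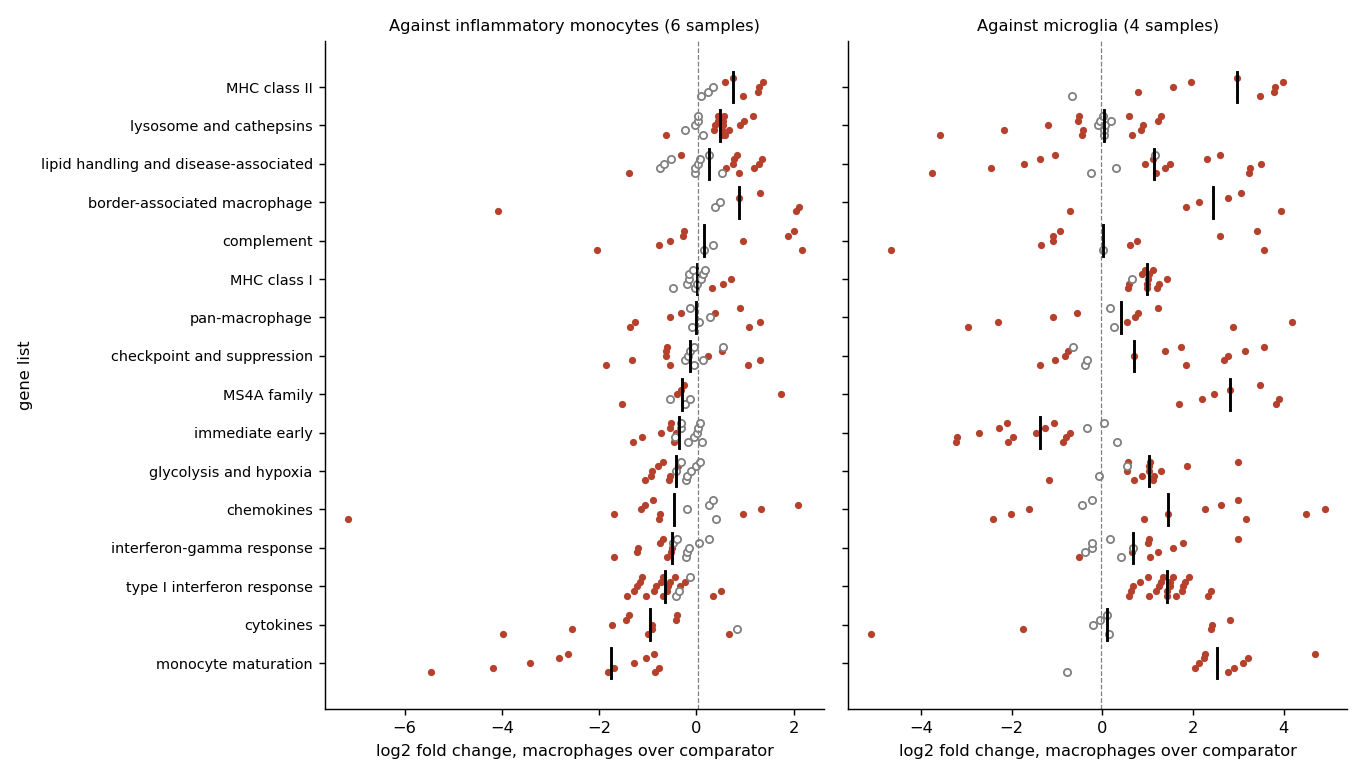
Log2 difference of each gene between macrophages and inflammatory monocytes, by gene list. Filled points passed, open points did not, black bars are list medians, and the dashed line is the median over all genes (0.03). Monocyte maturation genes lie lowest, and class II and lysosomal genes mostly above the line. Cxcl3 is drawn at its fitted value and rests on 2 UMIs.

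Against microglia 7784 genes were tested in samples 5, 6, 7 and 8. Of these, 1791 (23%) were higher and 1723 (22.1%) lower in macrophages, with a median of -0.03. With a top hashtag of 90% or more the counts were 762 and 863, with at most 1 monocyte gene 875 and 933, and DESeq2 called 1137 lower. Markers of other cells moved as well. Of 6 T cell genes tested 4 were higher than in microglia, of 2 NK cell genes 1, and the 1 endothelial gene, Flt1, was higher too (1.97 ± 0.53). The mature dendritic list had 1 higher and 1 lower of 2, and the plasmacytoid list 1 higher and 2 lower of 3. Both B cell genes, the 1 neutrophil gene and 1 of 2 oligodendrocyte genes were lower, and none of the 2 carcinoma genes or the 1 choroid plexus gene passed. The 8 T cell genes summed to 9.19 to 317 CPM in macrophages over 6 samples and to 6.58 to 135 CPM in microglia over 4. The 6 NK cell genes summed to 3.06 to 277 and 4.12 to 83.3 CPM, and the 6 endothelial genes to 30.4 to 351 and 14.0 to 200.03 CPM. The part of these cells in the result was not tested.

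Most class II genes were higher than in microglia, 8 of 9, with a median of 2.98. H2-Ab1 was 321, 161, 401 and 1347 CPM in microglia of samples 5, 6, 7 and 8 and 4056, 3514, 6570 and 7429 in macrophages, without overlap (3.79 ± 0.24). In both gates sample 8 was highest and sample 6 lowest. Cd74 differed by 3.48 ± 0.22 and Ciita by 2.98 ± 0.36. MHC class I was higher in 12 of 13 genes, with a median of 0.99. All 22 type I interferon genes passed as higher, with a median of 1.43, led by Ifi44 (2.40 ± 0.22) and Irf7 (2.34 ± 0.18), so this list lay above microglia and, as given above, below monocytes. Isg15 was 258 to 587 CPM in microglia.

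MS4A and monocyte maturation genes were also higher. All 7 MS4A relatives tested were higher, with a median of 2.81. Of 10 monocyte maturation genes 9 were higher, Ccr2, the receptor for monocyte entry, by 3.21 ± 0.19. Lyz2 was higher by 2.88 ± 0.16 and Nr1h3, the oxysterol receptor LXR-alpha, by 4.18 ± 0.23. Ccl8 (4.91 ± 0.25), F10 (coagulation factor X, 4.69 ± 0.29), Saa3 (serum amyloid A, 4.55 ± 0.46), Cxcl1 (4.49 ± 0.41), Ocstamp (4.34 ± 0.41), Acp5 (4.33 ± 0.40), Fpr2 (4.23 ± 0.57) and Clec4d (4.23 ± 0.28) stood among the largest. Ccl8 and Acp5 carry the single-barcode counts given above. Clec4b1, a C-type lectin, had 106 UMIs in macrophages and 2 in microglia, a ratio of 65.8 (exact 95% interval 17.8 to 551).

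Genes of resident microglia were lower. Sall3 had 0 UMIs in the macrophages of these samples and 285 in microglia, at least 76.5-fold lower against a floor of 3 counts over the group. Csmd3 (at least 58.8-fold), Sgce (44.5), Fam167b (34.9) and Tmem100 (30.3) were likewise at 0. Slc2a5, the fructose transporter, had 1 UMI against 412, a ratio of 332 (exact 95% interval 59.2 to 13131), and Lrrc3 1 against 357, a ratio of 287. Adamts1, Plxdc2 and Crybb1 differed by -7.82 ± 0.38, -7.66 ± 0.32 and -7.50 ± 0.29. Csf1r was 1785 to 2071 CPM in microglia (-2.29 ± 0.12) and Trem2 1354 to 1454 (-1.74 ± 0.14). C1qa, higher than in monocytes, was lower than in microglia, which held 7118 to 8671 CPM (-1.08 ± 0.13).

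Immediate early genes were lower in 13 of 16, with a median of -1.36, Jun by -3.22 ± 0.15 and Egr1 by -2.72 ± 0.17. Cell cycle genes were lower in 14 of 16, with a median of -1.53. Glycolysis and hypoxia genes were higher in 12 of 15, with a median of 1.03. The other lists were split. Of 18 lipid-handling genes 10 were higher (Lgals3, Fabp5 and Gpnmb by over 3 log2 units) and 5 lower (Csf1, Cd9, Trem2, Cst7 and Abca1). Of 20 lysosomal genes 6 were higher and 7 lower, of 13 chemokines 8 and 3, and of 9 cytokines 3 and 2. Il1b was higher (2.41 ± 0.19) and Il1a lower (-5.10 ± 0.18). The treatment targets went opposite ways: Cd274 was 73.6 to 206 CPM in macrophages and 26.2 to 55.2 in microglia (1.84 ± 0.24), and Vsir was 128 to 179 in macrophages of these samples and 376 to 487 in microglia (-1.38 ± 0.13). Neither pair overlapped.

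Shares of cells with at least 1 UMI were compared after each cell was thinned to 2000 UMIs, the lower quality limit, so that no cell was left out. The values are medians over samples. Cxcl16 was found in 73.4% of macrophages (65.8 to 81.1%), 32.8% of monocytes, 25.8% of microglia and 1.46% of T cells. T cells are a guide to free RNA that may read low, since their gate left out Ms4a7. Cxcl10 was found in 26.3% of macrophages (21.2 to 54.7%), 62.0% of monocytes, 26.2% of microglia and 19.6% of T cells, so its share in macrophages lay near that of T cells. Cd74 was found in 92.5, 62.3, 28.6 and 12%, and C1qa in 74.1, 24.0, 100 and 3.67%. Cd274 was at 22.2% in macrophages, 22.6% in monocytes and 10.4% in T cells, and Vsir at 26.9, 22.9 and 13.7%, against 63.6% in microglia. Mrc1 was seen in 13.6% of macrophages, 4.17% of monocytes and 0% of T cells. Without thinning, shares were higher: 97.8% for Cxcl16, 54.2% for Cd274, 72.1% for Vsir and 31.7% for Mrc1.

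**Figure D5:**
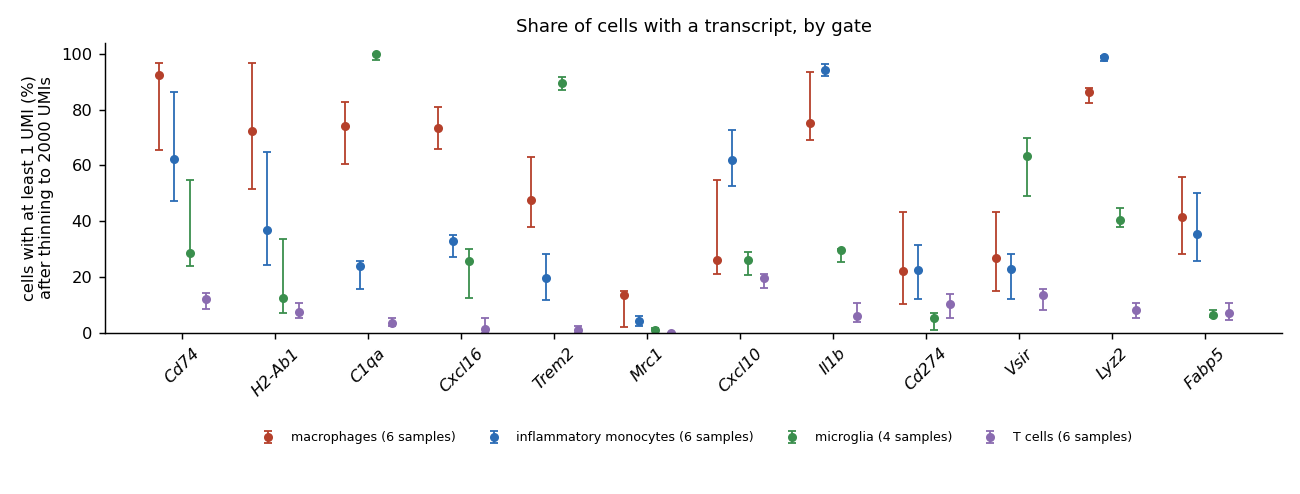
Percentage of cells with at least 1 UMI of each gene after thinning to 2000 UMIs, as the median over hashtag samples with bars from the lowest to the highest sample, in macrophages, inflammatory monocytes, microglia and T cells. Cxcl16 is at 73.4% in macrophages and 32.8% in monocytes, and Cxcl10 at 26.3 and 62.0%.

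Within the macrophages, cells with much and little surface Ly-6C were compared. In samples 5 and 8, the only ones with at least 60 macrophages, cells were ranked by the share of their tags that was Ly6C, and the 26 (sample 5) and 31 (sample 8) highest cells were set against as many lowest. The high cells held 646 and 1122 Ly6C tags per cell and the low cells 308 and 281. I-A-I-E went the other way, at 358 and 534 tags in the high cells and 3705 and 1910 in the low cells, and since the ranking used shares of tags, cells rich in I-A-I-E tags rank low by construction. Of 4935 genes, 43 (0.871%) were higher and 38 (0.770%) lower in the high cells.

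Some chemokine and immediate early genes were higher in the Ly-6C-high macrophages, though most members of both lists did not pass. Of 12 chemokine genes 5 were higher and 1, Cxcl9, lower. Ccl3 was 596 ± 78.4 CPM in high and 170 ± 76.2 in low cells (SD, n = 2 samples, 1.79 ± 0.20), and Ccl4 and Ccl2 differed by 1.30 ± 0.12 and 1.36 ± 0.17. Ccl4 was -0.023 with cells ranked by Ly6C per CD45 tag. Of 16 immediate early genes 7 were higher and 0 lower, Jun by 1.15 ± 0.15. Ier2, another of them, turned to -0.18 with 6 samples split at the median and to -0.33 with that split made per CD45 tag. Fn1 (2.92 ± 0.46), Flt1 (2.67 ± 0.59), Id1 (2.57 ± 0.51), Gdf15 (2.39 ± 0.48), Arl4a (2.36 ± 0.55), Gzmb (1.96 ± 0.38), Plk2 (1.85 ± 0.31), Rhob (1.79 ± 0.34) and Ms4a4b (1.69 ± 0.34) rose most. Gdf15 turned to -0.78 among cells of up to 20000 UMIs. Flt1 is the 1 gene tested of the endothelial marker list, and Gzmb and Ms4a4b are known from lymphocytes. The 1 NK cell marker tested did not pass (2.16, adjusted p = 0.429), nor did any of 3 T cell markers (median -0.99), and the part of other cells in these differences was not tested. Of 7 class II genes 4 were lower: H2-Aa (-0.77 ± 0.08), H2-Eb1 (-0.76 ± 0.08), H2-Ab1 (-0.71 ± 0.08) and Cd74 (-0.61 ± 0.06). Summed, these 4 transcripts correlated with the I-A-I-E tag across cells (0.74 in sample 5 and 0.60 in sample 8). Cells rich in that tag rank low by construction, so the lower transcripts may follow the ranking and are a description only.

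Dendritic cell genes were among those most reduced in the Ly-6C-high cells. Ccr7 had 0 UMIs in the high and 153 in the low cells, at least 39.5-fold lower in the high cells, and Klrb1b 0 and 27, at least 6.97-fold lower (floor of 3 counts over the group). Cd209a had 1 and 47 UMIs, a ratio of 36.4 (exact 95% interval 6.22 to 1469). Ramp3 had 3 and 58, a ratio of 15 (4.88 to 74.7). Both intervals cover counting error only. Tbc1d4 (-4.21 ± 0.44), Tnfrsf4 (-4.13 ± 0.61), Avpi1 (-2.66 ± 0.41), Il1r2 (-2.51 ± 0.44), Tmem123 (-2.26 ± 0.37) and P2ry10 (-2.18 ± 0.53) also fell. Ccr7 was detected in 11 of the 79 macrophages of sample 5 and 5 of the 95 of sample 8. In sample 8, 1 barcode held 29 of its 45 UMIs. Members with dendritic genes held more H2-Ab1 than the others (6659 against 4855 CPM over all samples). Cells rich in the class II tag rank low by construction, so the lower dendritic genes may follow the ranking and are a description only. Without the cells that held 2 dendritic markers, 11 genes were higher and 8 lower. Without the sample block 0 passed in either direction by edgeR's test (316 had an unadjusted p under 0.05), and with cells ranked by Ly6C tags per CD45 tag in 6 samples again 0. Of 47 single genes described for this ranking, 0 passed under every alternative that gave a value. This comparison rests on 2 samples and on how cells were ranked.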

How the data were processed

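The deposited values are raw UMI counts for each gene, antibody and hashtag in called barcodes. The submitters' processing notes name Cell Ranger 3.1, Seurat 3.1.1 and the mouse build mm10. Per the file headers there are 31062 gene and transgene rows, 35 antibodies, 8 mouse and 6 human hashtags. No source used here gives the gene annotation.

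Members, gates and gene lists were chosen with earlier results of these data known. Counts were summed per hashtag sample and gate with at least 20 cells and tested with edgeR 4.0.16 (TMM, filterByExpr, quasi-likelihood test, hashtag sample as block) in R 4.3.3. Tags used the tag total as library size. DESeq2 1.42.0 was an alternative. Both gates of a pair came from the same hashtag sample, and their deviations from the gate means correlated at 0.05 to 0.36 (monocytes) and 0.03 to 0.12 (microglia). No doublet caller was run beyond the hashtag limit. Scripts were tested on simulated data.

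The text draws its named genes from the 10 largest changes in each direction among genes that passed, moved the same way in every sample and had a mean of at least 20 CPM in the higher group (no rule, gate, mitochondrial, ribosomal or Gm-numbered gene), the 20 with most UMIs, the 10 most variable with a mean of at least 100 CPM, and members of the lists. Some genes these rules name are not reported here. The other-cell lists gave 0 passing genes against monocytes except Bst2. Figures used matplotlib 3.10.9, and counts were handled with numpy 2.4.6, scipy 1.17.1 and pandas 2.3.3.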

Additional observations from a re-analysis of the deposited data

Results flagged for a closer look

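Of 103 sets of values over hashtag samples, 10 held a sample whose gap to its nearest neighbour was large for the range. The limit was Dixon's 95% value, which chance exceeds in about 1 in 20 sets. Each set had 6 samples, except the macrophage share of quality barcodes, which had 8. The sets included the 10 genes picked as most variable between these same samples, and all 5 genes flagged below are among them. The number flagged therefore cannot be set against that 1 in 20. For 5 genes the sample stood high: Ctsk at 790 CPM and Acp5 at 874 CPM in sample 5, Hmox1 at 1360 CPM in sample 6, Ccr7 at 312 CPM in sample 7 and Spp1 at 1518 CPM in sample 8. In each of these 1 barcode held over 50% of the gene's UMIs in that sample. The CD169-Siglec-1 tag stood high in sample 6, at 20.7 tags per macrophage. The summed level of the MHC class I list stood high in sample 8, at 18157 CPM. The monocyte maturation list stood low in sample 6, at 2669 CPM. The erythrocyte list reached 2.54 CPM in sample 6, with 0.703 CPM in sample 8 and 0 in the others. The neutrophil list stood high in sample 5, at 228 CPM, where the barcode with most Ctsk held 174 UMIs of its member Mmp9.

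Human hashtags, whose use the sources used here do not give, gave 1216 counts in the macrophages and entered no comparison. They were seen in 225 of 304 macrophages (74.0%), 299 of 616 monocytes (48.5%), 92 of 424 microglia (21.7%) and 334 of 920 T cells (36.3%).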

How the results depend on the processing

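Against monocytes 762 and 967 genes were higher and lower in macrophages, and 103 of 158 single genes described passed under every alternative that gave a value. DESeq2 gave 361 higher, and members with at most 1 monocyte gene (134 cells, enough only in samples 5 and 8) 302 and 623. With each gene's highest barcode left out, chosen after seeing the data, 767 and 1001 passed of 6370 tested, and 1582 of these calls were shared with the 1729 reported. Leaving out a sample gave 554 to 695 and 756 to 956. The fit without the replicate block gave 681 and 836, and 1793 and 1776 against microglia. Of 225 single genes described against microglia, 162 passed under every alternative that gave a value. There, DESeq2 gave 1137 lower, a top hashtag of 90% or more 762 and 863, at most 1 monocyte gene 875 and 933, and leaving out a sample 1316 to 1739 and 1377 to 1633.

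For the Ly-6C ranking, 43 and 38 became 0 and 0 with no replicate block, 30 and 25 with RLE size factors, 2 and 2 with DESeq2, 107 and 101 with no filter on low counts, 10 and 6 up to 20000 UMIs, 11 and 8 without cells with 2 dendritic markers, 70 and 69 without each gene's highest barcode, 1 and 7 with 6 samples each split at the median, and 0 and 0 with that split made by Ly6C per CD45 tag.

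For tags against monocytes, TMM gave 4 and 6, tags per cell 4 higher, no replicate block 4 higher, and leaving out a sample 5 to 9 and 2 to 3. Against microglia, TMM gave 4 lower, tags per cell 25 and 1, no replicate block 3 higher, a top hashtag of 90% 1 and 5, and leaving out a sample 2 to 5 and 15 to 21.

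With at most 1 monocyte gene Lpl turned to -0.32 against monocytes, and Cmpk2 (-0.30), Hilpda (-0.35) and Ms4a4b (-0.36) turned against microglia. In the Ly-6C ranking Gdf15 turned to -0.78 up to 20000 UMIs, Ier2 to -0.18 with the split of 6 samples and -0.33 per CD45 tag, and Ccl4 to -0.023 per CD45 tag. Tags that turned higher than microglia per cell were CCR2-CD192 (0.43), CD117-c-kit (1.34), CD11b (1.29), CD172a-SIRPa (1.15), CD25 (1.54), CD45R-B220 (1.00), CD64 (0.41), CD83 (0.84), CD90.1 (0.69), F4-80 (1.28), Ly6C (0.80), Ly6G (0.98), PD-1 (1.04), Siglec-H (0.40), TMEM119 (0.74) and XCR1 (1.23). Under TMM they were CD117-c-kit (0.084), CD11b (0.031), CD25 (0.28) and F4-80 (0.025), and with a top hashtag of 90% CD25 (0.024). The cause was not tested in any of these.

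Unthinned shares were 97.8% for Cxcl16, 88.2% for Il1b, 80.3% for Trem2, 54.2% for Cd274, 72.1% for Vsir, 31.7% for Mrc1 and 71.8% for Ly6c2. With 27 to 95 macrophages a sample, counts of low genes rest on few cells.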

Other observations

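Genes known from border macrophages and from dividing cells marked further subsets of the macrophages. At least 3 of the genes Mrc1, Cbr2, Folr2, Pf4 and Stab1 were detected in 48 of 304 macrophages (15.8%). As many were detected in 36 of 616 monocytes (5.84%), 12 of 424 microglia (2.83%) and 0 of 920 T cells. These 5 are only part of the border list of 10, so the shares depend on that choice. Of 7 list genes tested against monocytes, 4 were higher and 1, F13a1, lower. The whole list summed to a median of 535 CPM in macrophages (289 to 888) and 449 in monocytes (319 to 517). At least 2 of 5 cell cycle genes were detected in 43 macrophages (14.1%), against 8.12% of monocytes, 18.4% of microglia and 16.2% of T cells. These shares are not thinned, and the gates differed in depth (medians of 11637, 10970, 8186 and 5295 UMIs). In the barcode with most Spp1 of sample 8, with 33885 UMIs, 1370 were Spp1, 51 Lpl and 43 Pf4. In the barcode with most Ccl8 of sample 2, 337 UMIs were Fabp5 and 68 Gpnmb, the latter a glycoprotein of lipid-laden macrophages.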
